A study of Mus musculus with 8 samples.

Results

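The genes described are the 4 subunit genes of the hypoxia-inducible factors (HIFs) and the 5 genes of the enzymes and adaptor that sense oxygen and control them: Hif1a, Epas1, Hif3a, Arnt, Egln1, Egln2, Egln3, Vhl and Hif1an. They were chosen by name, and every probe set annotated to 1 symbol among them was taken, which gave 27 probe sets of the 34958 with a single symbol, for 9 genes of 18194. The family was put forward with the mutant against control values of these same arrays already known, the low Hif3a signal among them, so the values of that comparison are given here as a description, and the adjusted p-values of the members only place a difference against the spread between arrays.

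RNA came from small vessels of newborn mouse brain at postnatal day 1. Vessel fragments with their pericytes, the contractile support cells wrapped around capillaries, were captured with magnetic beads carrying an antibody against PECAM, an endothelial surface protein. The 4 mutant brains carried the PDGFRb (D849V) knock-in allele, an activated form of PDGF receptor beta, the receptor that marks pericytes, and the 4 control brains were wild type; both groups were on a 129S/J mixed background. Whether the mutants carried 1 or both copies of the allele is not given in the sources used here. Each brain, from total RNA of 6 ug, gave 1 array, so n = 4 in each group. Values are log2 GCRMA expression values, on which a step of 1 is a doubling.

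HIF is a pair of an alpha subunit and the beta subunit Arnt. In oxygenated cells the prolyl hydroxylases Egln1, Egln2 and Egln3 mark the alpha subunit, the VHL protein recognises the mark and sends it for destruction, and the asparaginyl hydroxylase Hif1an blocks its contact with coactivators. When oxygen is low these steps slow, the alpha subunit builds up, and genes of glucose use, blood vessel growth and iron supply are switched on. Most of this control acts on protein, which arrays do not measure. In the vasculature Epas1, also called HIF-2 alpha, is known as an abundant endothelial form, and variants of Hif3a lack the strong activating part and can restrain the other subunits.

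On the arrays as a whole, correlations between arrays were 0.988 to 0.995 within groups and 0.977 to 0.991 between them over all named and unnamed probe sets. The test used limma over the 11446 genes above a log2 value of 4 on at least 4 arrays, each gene read from its brightest probe set, with Benjamini-Hochberg adjustment and a threshold of 0.05. It called 524 genes, 304 higher and 220 lower in mutants (336 and 115 after centring the arrays, 333 and 141 after a second quantile normalization), and 69.1% of all tested genes had a negative difference, with a median difference of -0.11. All 19 endothelial markers on the array passed the filter and none was at the floor of the values. The same held for 11 astrocyte and radial glia, 11 fibroblast and meningeal and 12 neuron markers, so markers of these other cell types were measured as well. The fibroblast means were 9.83 to 10.74 in mutants and 10.16 to 10.50 in controls, with 1 gene called higher, and the neuron means 7.21 to 8.41 and 6.72 to 8.17, with none called by limma and 2 at an unadjusted p under 0.05. The mean of the endothelial markers was 11.07 to 11.52 on the mutant arrays and 11.52 to 11.80 on the control arrays, with 18 of 19 negative and 3 called lower. The 16 pericyte and mural markers had means of 9.41 to 9.79 in mutants and 9.32 to 9.69 in controls, with 2 called higher and 1 lower, and none was at the floor. Of 8 smooth muscle markers, 1 was at the floor and 5 were tested. All 5 had a negative difference, with a median of -0.45, and 0 were called. Their means were 9.29 to 9.72 in mutants and 9.42 to 10.36 in controls. Microglia and macrophage markers were brighter in mutants, with 12 of the 15 tested called higher, means of 9.15 to 10.06 against 7.35 to 8.22, and 1 of the 18 on the array, Itgam, at the floor. Interferon response genes stood further apart, with 12 of 13 called higher and means of 11.07 to 11.81 against 5.19 to 5.72. The part of any of these in the members' values was not tested. In such bulk samples fewer cells of a type and less RNA per cell cannot be told apart.

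All 9 members were bright enough to test on at least 1 probe set. All 9 had a negative difference, mutant minus control, where 69.1% of all tested genes did. The members' median was -0.23, against -0.11 over all genes. With each array centred on its median, 8 of 9 were negative, with Egln2 turning to 0.08. Only Hif3a was called by limma at the gene level, 1 of 9, where 1.92% of all genes were called lower, 2.66% higher and 4.58% in either direction. Mutant and control values did not overlap for 3 of the 9 genes, Hif3a, Epas1 and Egln1, all lower in mutants, where 10.4% of all genes separated that way. Since the family was chosen on this comparison, nothing is read from these shares.

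**Figure D1:**
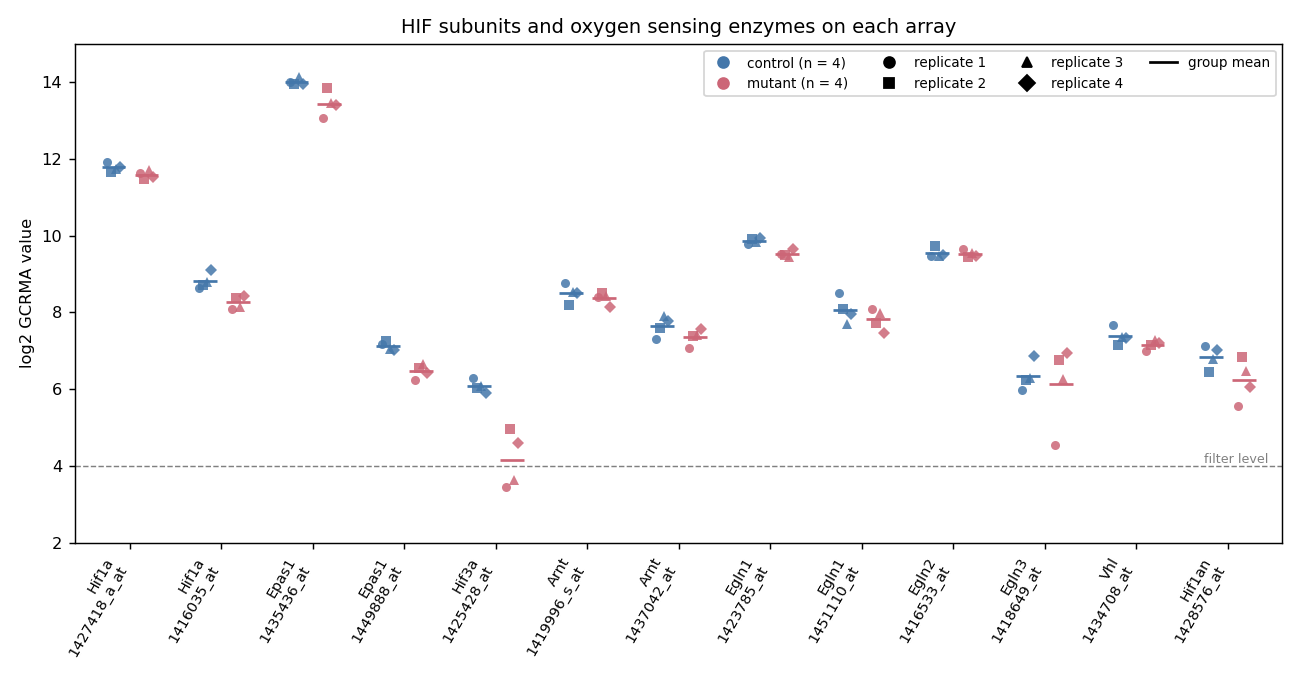
The log2 GCRMA value of each of the 13 member probe sets that passed the filter is plotted for every array, with controls in blue, mutants in red, a marker shape for each replicate number and a bar for each group mean (n = 4). The mutant Hif3a values reach down to 3.45, below the dashed filter level of 4, while the controls sit between 5.89 and 6.29, and the Epas1 groups are apart on both probe sets.

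The promoter windows of the members are shown because several of these genes are themselves known to answer to hypoxia. The core that HIF binds, in the hypoxia response element, was searched as ACGTG and GCGTG on both strands in the 250 bases before each gene's start. The windows are RefSeq sequences of GRCm38.p6, with a window for 8 of the 9 members. Capitals mark the cores in these 4 windows, written 5′ to 3′ along the strand of the gene. They are those of 2 alpha subunits, of the main prolyl hydroxylase gene and of the HIF-induced Egln3.
Hif3a promoter, chr7:17062428-17062677, minus strand: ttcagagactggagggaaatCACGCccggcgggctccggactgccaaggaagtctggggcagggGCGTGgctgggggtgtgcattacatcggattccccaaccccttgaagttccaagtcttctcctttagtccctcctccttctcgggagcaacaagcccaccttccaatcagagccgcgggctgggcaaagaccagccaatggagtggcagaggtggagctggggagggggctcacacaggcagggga
Hif1a promoter, chr12:73907617-73907866, plus strand: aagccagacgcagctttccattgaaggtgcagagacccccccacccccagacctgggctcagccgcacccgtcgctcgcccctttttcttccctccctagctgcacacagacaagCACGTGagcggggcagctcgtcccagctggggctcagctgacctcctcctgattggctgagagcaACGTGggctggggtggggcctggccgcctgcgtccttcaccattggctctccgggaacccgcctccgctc
Egln1 promoter, chr8:124949255-124949504, minus strand: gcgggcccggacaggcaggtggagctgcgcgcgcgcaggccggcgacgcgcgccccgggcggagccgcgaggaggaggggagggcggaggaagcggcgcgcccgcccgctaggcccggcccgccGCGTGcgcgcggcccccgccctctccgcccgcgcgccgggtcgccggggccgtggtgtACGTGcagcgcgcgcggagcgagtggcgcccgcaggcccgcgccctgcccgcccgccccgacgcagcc
Egln3 promoter, chr12:54203875-54204124, minus strand: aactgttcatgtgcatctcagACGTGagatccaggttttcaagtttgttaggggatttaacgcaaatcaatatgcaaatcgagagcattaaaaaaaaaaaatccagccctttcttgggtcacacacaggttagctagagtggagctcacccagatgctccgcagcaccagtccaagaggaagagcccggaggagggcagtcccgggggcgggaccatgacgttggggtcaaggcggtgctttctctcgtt

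The Hif3a window held GCGTG 230 and 186 bases before the start, and no ACGTG. In the Hif1a window ACGTG stood 70 bases before the start and, as the palindrome that reads the same on both strands, at 134 and 135. Egln1 had a core of each kind, at 126 and 68 bases, in a window with 51 CpG dinucleotides, a number reached by 0.067% of all windows. In Egln3 an ACGTG lay 229 bases before the start. Arnt and Egln2 held cores as well, while Vhl and Hif1an held neither, so that 6 of 8 members had at least 1. Of all 32851 windows of this length, 16.6% held ACGTG, 28.2% held GCGTG and 38.6% held either. These shares count single windows, whereas the members are counted as genes, with Egln2 counted once for several windows. Windows of like CpG content were not compared. A match of these letters is a description of the window and not a measured binding site.

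Among the alpha subunits, Hif3a gave the widest separation. It read 3.45, 4.95, 3.63 and 4.59 on mutant arrays 1 to 4 and 6.29, 6.02, 6.08 and 5.89 on control arrays 1 to 4. Every mutant value lay below every control value, with 0.93 between the nearest of them. The group means were 4.16 ± 0.73 and 6.07 ± 0.17 (SD, n = 4 each), a difference of -1.91 (SE 0.32), or 3.76-fold lower in mutants. Of the 11446 genes, 2 had a more negative difference. The limma adjusted p was 0.0133, and 0.0612 when dim genes were kept in the test. Mutant arrays 1 and 3 were under the filter level of 4, near the dim end where folds depend on the background estimate.

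Hif3a had 6 probe sets, and the separation rested on 1 of them. Probe sets 1421572_at, 1425429_s_at, 1447061_at and 1459052_at were at the floor of 2.18 on all 8 arrays. The remaining one, 1446708_at, read 3.59, 3.63, 3.54 and 3.63 in mutants and 3.75, 3.64, 4.03 and 3.76 in controls. It was above 4 on a single array and was not tested. Its groups differed by -0.20, and the nearest values of the groups, 3.63 and 3.64, were almost the same. Which Hif3a transcripts each probe set reads was not analysed here.

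Epas1, the HIF-2 alpha subunit, was lower in mutants on both of its probe sets. On the bright 1435436_at the mutants read 13.07, 13.85, 13.46 and 13.40 and the controls 14.00, 13.96, 14.14 and 13.96. On the dimmer 1449888_at the mutants read 6.24, 6.55, 6.65 and 6.42 and the controls 7.17, 7.26, 7.04 and 7.01. The groups were apart on both, by 0.11 and 0.36 between the nearest values, and mutant array 1 was the lowest on each.

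The bright Epas1 probe set differed by -0.57 (SE 0.16, limma adjusted p = 0.0869), which is 1.48-fold lower. Without mutant replicate 2, the highest of its group, it was -0.70 and called (limma adjusted p = 0.0246). Read from the mean of both probe sets, Epas1 differed by -0.61 and was called (limma adjusted p = 0.0223). At the gene level Epas1 was called in 3 of 21 settings, both of these included. Its limma adjusted p was 0.105 with each array centred on its median and 0.178 when dim genes were kept. It was 0.151 to 0.204 when a control array was left out. The dimmer probe set differed by -0.66 (SE 0.11, 1.58-fold lower), with an adjusted p of 0.0196 in the limma fit over the 19302 probe sets that passed the filter. That call was lost when a control array was left out, at limma adjusted p from 0.0504 to 0.0614. Of those 19302 probe sets, 2.98% were called in either direction, 0.995% were called lower, and 8.65% had mutant values entirely below the control values. Among the 13 tested member probe sets 2 were called, 1 each of Hif3a and Epas1, and 5 had groups apart. Without any 1 of the control arrays neither was called in that fit, though Hif3a was at the gene level, with limma adjusted p from 0.0411 to 0.0473. All 13 had a negative difference, against 67.5% of all probe sets.

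Endothelial markers as a list were lower on the same arrays, with the means given above. With the endothelial mean of each array as a covariate, a setting added after the data were seen, the Epas1 differences were -0.60 (SE 0.22) and -0.61 (SE 0.16) and that of Hif3a was -2.20 (SE 0.44), with limma adjusted p of 0.144, 0.0736 and 0.0306. The endothelial mean itself nearly separated the groups, so this fit cannot tell genotype from endothelial content. The part of endothelial RNA in these differences was not tested.

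Hif1a, the widely expressed alpha subunit, gave a small difference on its brighter probe set and a larger one on its dimmer. On 1427418_a_at the mutants read 11.63, 11.47, 11.71 and 11.53 and the controls 11.91, 11.67, 11.75 and 11.79, with overlapping groups. The difference there was -0.20 (SE 0.091, limma adjusted p = 0.271). On 1416035_at the mutants read 8.08, 8.38, 8.15 and 8.44 and the controls 8.65, 8.72, 8.80 and 9.10. These groups were apart by 0.20, with a difference of -0.55 (SE 0.13, limma adjusted p over all probe sets = 0.0771). Its other probe sets were uninformative: 1448183_a_at stayed under the filter level on every array and 1431981_at was at the floor.

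Arnt, the beta subunit that all alpha subunits need as partner, overlapped between the groups. On 1419996_s_at the mutants read 8.41, 8.50, 8.44 and 8.13 and the controls 8.78, 8.20, 8.53 and 8.50, a difference of -0.13 (SE 0.14, limma adjusted p = 0.617). On 1437042_at the mutants read 7.07, 7.38, 7.42 and 7.56 and the controls 7.31, 7.59, 7.90 and 7.77, a difference of -0.29 (SE 0.16, limma adjusted p over all probe sets = 0.383). The 95% interval of the first, -0.45 to 0.19, leaves room for a modest difference in either direction. Its other 3 probe sets were at the floor on all 8 arrays.

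The prolyl hydroxylases differed among themselves. Egln1, known as PHD2 and the main hydroxylase of the alpha subunits in most cells, read 9.52, 9.49, 9.44 and 9.66 in mutants and 9.79, 9.91, 9.84 and 9.93 in controls on its brighter probe set. The groups did not overlap and the arrays of each group lay close together, so that 93.9% of all tested genes had a larger pooled within-group SD than its 0.081. The difference was small, -0.34 (SE 0.083, 1.26-fold lower, limma adjusted p = 0.0612). The limma adjusted p was 0.0362 when dim genes were kept in the test and 0.043 without mutant replicate 4. Egln1 was called in 5 of 21 settings, both of these included. Scaling the arrays moved it away from the threshold. Its limma adjusted p was 0.27 after centring, with a difference of -0.25, and 0.181 after a second quantile normalization. Read from the mean of its probe sets, it had a limma adjusted p of 0.162. The dimmer probe set 1451110_at read 8.10, 7.73, 7.99 and 7.46 in mutants and 8.50, 8.10, 7.70 and 7.96 in controls, and there the groups overlapped (-0.24, SE 0.20).

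Egln2, or PHD1, differed little between the groups. It read 9.65, 9.45, 9.56 and 9.46 in mutants and 9.46, 9.73, 9.47 and 9.49 in controls, and the 95% interval of its difference ran from -0.23 to 0.21 around -0.01. Its promoter windows held cores, as did that of Hif3a, and any relation of cores to differences was not tested. The sign of its difference changed with the scaling of the arrays, to 0.053 after a second quantile normalization and 0.08 after centring.

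Egln3, or PHD3, whose window with 1 core is printed above, is itself a gene that HIF strongly induces in many cell types. It read 4.53, 6.75, 6.27 and 6.95 in mutants and 5.98, 6.24, 6.29 and 6.87 in controls. Mutant array 1 stood lowest, and the other mutants lay among or above the controls. The difference was -0.22 (SE 0.50, 95% interval -1.36 to 0.92, limma adjusted p = 0.834), and without mutant replicate 1 it was 0.31. Its pooled SD of 0.82 was exceeded by 1.38% of tested genes. The astrocyte and radial glia markers, 11 genes of which none was called and 0 had an unadjusted p under 0.05 with limma, were also lowest on that array, with a mean of 8.74 against 9.73 to 10.08 on the other mutant arrays and 9.14 to 9.59 on the controls. Among the mutant arrays, array 1 was also lowest for the means of the neuron (7.21), fibroblast (9.83), pericyte (9.41) and smooth muscle (9.29) lists. It was highest for the endothelial (11.52) and microglia (10.06) lists. The part of any of these cell types in the Egln3 value was not tested. The dimmer Egln3 probe set stayed under the filter level on every array.

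Vhl, the substrate-recognising subunit of the ubiquitin ligase, read 6.99, 7.14, 7.28 and 7.21 in mutants and 7.67, 7.16, 7.37 and 7.34 in controls. The groups overlapped, with a difference of -0.23 (SE 0.12, limma adjusted p = 0.326), and its dimmer probe set stayed under the filter level.

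Hif1an, the asparaginyl hydroxylase also called FIH, read 5.57, 6.84, 6.47 and 6.05 in mutants and 7.12, 6.45, 6.79 and 7.02 in controls. The groups overlapped, with control array 2 below mutant arrays 2 and 3. The difference was -0.61 (SE 0.27, 1.53-fold lower, limma adjusted p = 0.247), with a wide spread: 11.9% of tested genes had a larger pooled SD than its 0.44. Its other probe sets were at the floor.

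**Figure D2:**
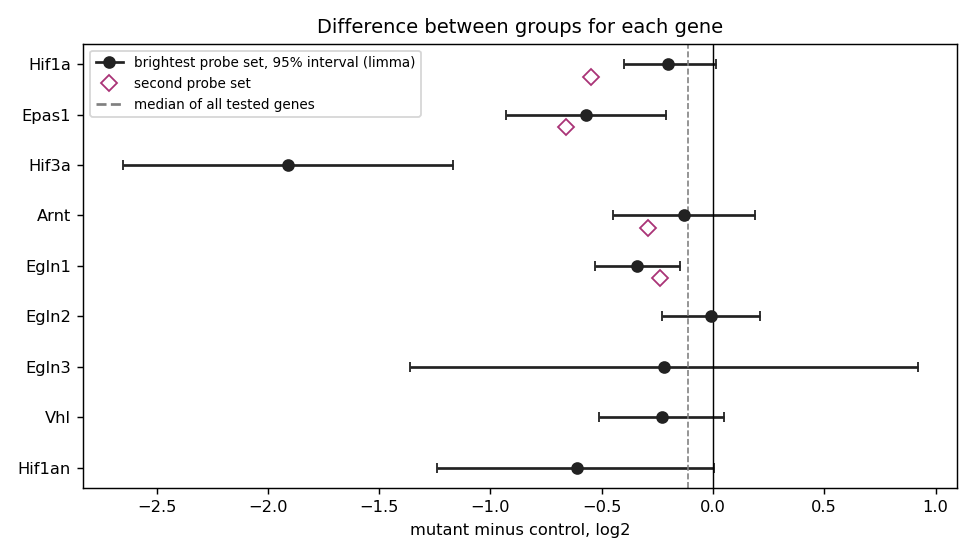
The difference between mutant and control arrays is plotted on the log2 scale for each gene, with the brightest probe set as a black point and its 95% interval from limma, and the second tested probe set as an open diamond. Hif3a lies at -1.91, the intervals of Hif3a, Epas1 and Egln1 stay below 0, and the dashed line marks the median of all tested genes at -0.11.

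The mutant SD exceeded the control SD in 6 of the 9 genes, near the 59.5% of all tested genes in which it did so. Hif3a (0.73 against 0.17) and Epas1 (0.32 against 0.082) were among the 6. Mutant array 1 gave the lowest mutant value for 5 of the 9 genes, near the 45.6% of all tested genes. Without that array the members called were again 1 of 9.

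The 5 genes whose profile over the 8 arrays came closest to that of Hif3a, with each gene centred on its own mean, were Adamts16, Sfrp2, Nfatc2, Col14a1 and Fendrr. Their root mean square distances from Hif3a were 0.287, 0.351, 0.351, 0.44 and 0.457 on the log2 scale, against a median of 1.02 over all tested genes. Adamts16 encodes a secreted metalloprotease and read 3.84, 5.23, 4.56 and 4.91 in mutants and 6.88, 7.18, 6.62 and 6.43 in controls. Like Hif3a, all 5 were lowest on mutant array 1 and lower on every mutant array than on any control array. Col14a1 read 2.44, 3.5, 3.12 and 3.93 in mutants and 4.38, 4.92, 4.93 and 5.28 in controls. It was under the filter level of 4 on every mutant array and entered the test through the control arrays alone. Closeness by this measure picks genes with a difference of like size, and these genes share the same 8 arrays.

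**Figure D3:**
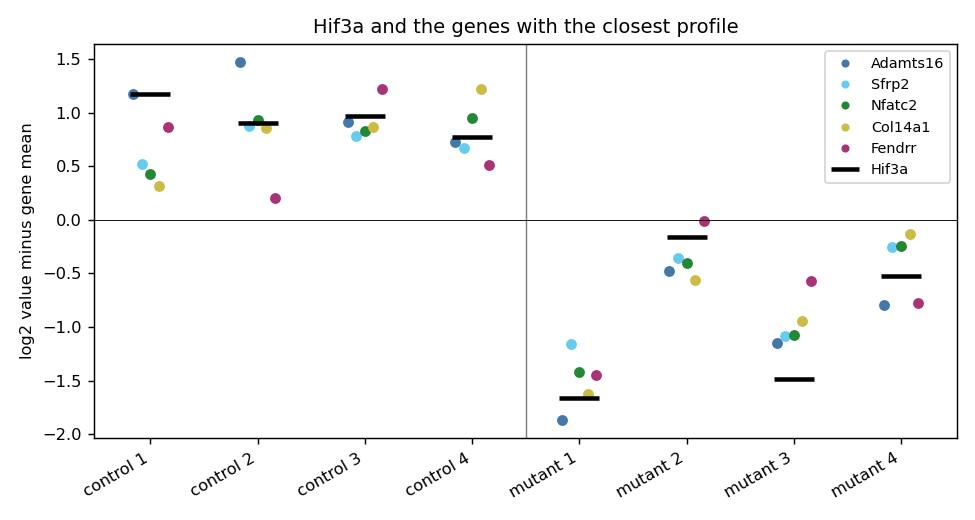
Each gene's log2 value minus its own mean is plotted for the 8 arrays, with Hif3a as black bars and its 5 closest genes as coloured points. All 6 genes are above their mean on the 4 control arrays and below it on the 4 mutant arrays, and lowest on mutant array 1.

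Genes around the pathway were taken from 5 lists, chosen like the members with earlier results of these data known. They held 73 tested genes, of which 1 was called higher and 1 lower, against 4.58% of all tested genes called.

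The 1 that rose was Cited2, which binds the coactivators CBP and p300 at the place where HIF alpha subunits do and is known to limit HIF activity. It read 10.62, 10.66, 10.65 and 10.30 in mutants and 9.72, 9.62, 9.77 and 9.60 in controls. The groups were apart, with a difference of 0.88 (SE 0.11, 1.84-fold higher, limma adjusted p = 0.00183). A second, dim probe set differed in the same direction, by 0.66 (limma adjusted p over all probe sets = 0.0128), and the call held in every setting tried, with differences of 0.77 to 1.04. The other 16 tested cofactors and regulators did not pass, and the list's median was -0.13, near that of all genes.

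The 1 that fell was Tfrc, the transferrin receptor through which cells and the brain endothelium take up iron. It read 13.72, 13.83, 13.59 and 13.40 in mutants and 14.24, 14.54, 14.13 and 14.17 in controls, a difference of -0.63 (SE 0.13, 1.55-fold lower, limma adjusted p = 0.0311). The groups were apart, but the call was lost in 14 of 21 settings, among them leaving out any array other than mutant array 2, with limma adjusted p from 0.0517 to 0.318 over the settings that kept the threshold. Its 5 other probe sets differed in the same direction, by -0.22 to -0.88, and none passed.

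Of the 27 tested genes in the list of other HIF targets, 13 had an unadjusted p under 0.05, where 20.6% of all tested genes did, and 20 had a negative difference. The median was -0.19, against -0.11 for all genes. Without overlap between the groups, 8 were lower and 1 higher, where 10.4% of all genes were lower in that way. Lox, a collagen cross-linking enzyme, read 7.86 ± 0.70 in mutants and 9.05 ± 0.38 in controls (difference -1.19, limma adjusted p = 0.101), and Ero1a, an oxidase of protein folding, 7.35 ± 0.16 and 7.77 ± 0.067 (-0.42, limma adjusted p = 0.054). Kdm3a, a histone demethylase, read 8.91 ± 0.22 and 9.33 ± 0.07 (-0.42, limma adjusted p = 0.0966; SD, n = 4 each throughout). In the other direction, Adm, the vasodilator adrenomedullin, read 8.57 ± 0.16 and 8.15 ± 0.21 (0.42, limma adjusted p = 0.127). Vegfa, the growth factor most closely tied to HIF in vessel growth, read 6.97 ± 0.27 and 6.85 ± 0.20 (0.12, SE 0.16, limma adjusted p = 0.706). These 5, and Aldoa below, were chosen after their values were seen. Tek and Flt1 of this list are also endothelial markers, as is Slc2a1 of the next.

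Of 18 glycolytic targets tested with limma none passed and 5 had an unadjusted p under 0.05, where 20.6% of all tested genes did. Among them 12 had a positive and 6 a negative difference, and the median was 0.076. The glucose transporter Slc2a1 read 14.47 ± 0.06 in mutants and 14.75 ± 0.12 in controls (-0.28, SE 0.088, limma adjusted p = 0.127), with groups apart. Gapdh read 13.39 ± 0.075 and 13.29 ± 0.056 (0.095, limma adjusted p = 0.514). Aldoa, an aldolase, was higher on every mutant array than on any control array, at 12.22 ± 0.032 and 11.92 ± 0.084 (0.29, SE 0.077, limma adjusted p = 0.0767; SD, n = 4 each throughout). Aldoa was called higher in 4 of 21 settings, with limma adjusted p from 0.0122 to 0.236 over all of them.

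No subunit of the VHL ubiquitin ligase passed with limma among 5 tested, 0 of them with an unadjusted p under 0.05 (median -0.11). Elob, a subunit of the complex, differed by -0.13 (SE 0.11) and Nedd8, the small modifier that activates the cullin, by 0.063 (SE 0.078), with limma adjusted p of 0.502 and 0.673. None of 6 other bHLH-PAS factors, the wider family of HIF subunits, passed with limma, and 3 had an unadjusted p under 0.05, against 20.6% of all tested genes (median -0.12). Without mutant replicate 4, 1 did: Npas2, a clock factor named here after its values were seen, which read 4.78, 5.48, 5.45 and 4.35 in mutants and 4.43, 3.82, 4.17 and 4.07 in controls. Ahr, the aryl hydrocarbon receptor that also pairs with Arnt, read 8.03, 8.63, 8.42 and 8.59 in mutants and 9.03, 8.80, 9.18 and 9.16 in controls, with groups apart (-0.63, SE 0.15, limma adjusted p = 0.0618). Arnt2, the brain form of the beta subunit, differed by -0.075 (SE 0.32, limma adjusted p = 0.912).

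**Figure D4:**
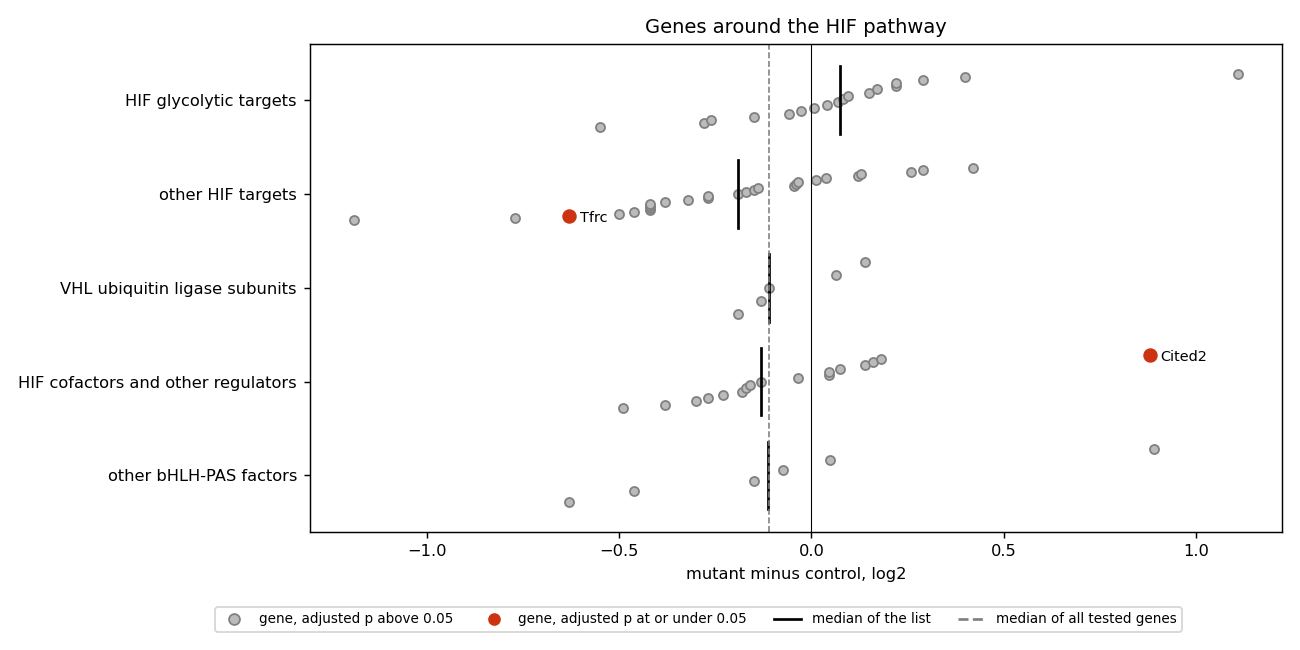
Each point is the mutant minus control difference of a tested gene on the log2 scale, in 5 rows for the 5 lists, with black bars at the list medians and a dashed line at the median of all tested genes, -0.11. Cited2 at 0.88 and Tfrc at -0.63 are the called genes, drawn in red, and the glycolytic row is centred at 0.076.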

How the data were processed

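Microvessel RNA of 8 newborn mouse brains, 4 mutant and 4 control by the genotype in the labels, was measured on 1 Affymetrix array each. What the authors deposited is a log2 value for each probe set. GCRMA is the method named in the submitters' processing notes, with no version or options stated there. The log2 scale was read from the values, 2.18 to 16.49. GCRMA estimates background from probe sequence, so dim probe sets gather at a floor, taken here as values within 0.5 of the lowest, and folds near it are unsure. The number of arrays limits the precision.

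Of 45101 probe sets, 34958 had 1 symbol, 932 several and 9211 were unnamed here. Each of 18194 genes was read from its brightest probe set; 11446 (62.9%) were above 4 on at least 4 arrays and entered the two-sided test of limma 3.58.1 (R 4.3.3), with Benjamini-Hochberg adjustment. A second fit took all 19302 probe sets that passed. No batch was tested, since no litter, preparation day or scan date was known. The mean of Y-linked genes was at the floor on mutant array 2 (2.22) and on control arrays 1 and 4 (2.18). It was 8.02 to 8.22 on the other arrays, so by these genes sex was mixed and not balanced between groups. With that mean as a covariate Hif3a differed by -1.80 (limma adjusted p = 0.0227). The members, lists and tests were chosen with earlier results of these data known. Named were all members, from each pathway list up to 4 called genes or the 2 brightest where none was called, and the 5 genes closest to Hif3a; Lox, Ero1a, Kdm3a, Adm, Vegfa, Aldoa and Npas2 were added after their values were seen. Listed genes lacking a probe set of their own symbol were not analysed here. Alternatives changed the filter, scaling, probe set choice, covariates, weights, threshold and fold, and left out each array in turn.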

Additional observations from a re-analysis of the deposited data

Results flagged for a closer look

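Of 64 groups of 4 arrays, those of the member probe sets and named genes, 4 had an array far from the other 3 of its group by Dixon's test, where chance gives about 1 in 20. Egln2 read 9.73 on control array 2 against 9.46 to 9.49 on the other controls. Cited2 read 10.3 on mutant array 4 against 10.62 to 10.66, which still lay above every control. Gapdh read 13.28 on mutant array 2 against 13.42 to 13.44. Aldoa read 12.27 on mutant array 2 against 12.20 to 12.21. The cause was not tested.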

How the results depend on the processing

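Hif3a, Epas1, Hif1a, Egln1, Vhl and Hif1an kept a negative difference in every setting that tested them, other choices of probe set included, with ranges of -2.20 to -1.68, -0.70 to -0.44, -0.55 to -0.11, -0.44 to -0.25, -0.31 to -0.11 and -0.82 to -0.40. Hif3a kept its call in 16 of 19 settings and lost it with no filter (limma adjusted p = 0.0612), with the replicate block (0.0645) and at a threshold of 0.01. With the mean of the probe sets 7 members passed the filter, and Hif3a was not among them. The 1 member called there was Epas1 (-0.61, limma adjusted p = 0.0223). The number of members called, 1, was 0 with a filter at 6, where Hif3a was not tested, 0 with the replicate block and at a threshold of 0.01, 2 with the trend and robust settings of eBayes and with the endothelial covariate, 3 with array weights, and 1 to 2 with an array left out. The member probe sets called, 2, were 1 with no filter, with a filter at 6 and with the endothelial covariate, 0 with the block and at 0.01, 6 with array weights, and 0 to 3 with an array left out. None was called without control replicate 1, 2, 3 or 4. Genes called over all, 524, were 259 with the block, 246 at 0.01, 3158 with array weights and 303 to 608 with an array left out (303 without control replicate 4, 320 without mutant replicate 3 and 322 without control replicate 3). Genes called in the 5 pathway lists, 2, were 1 with centred arrays, with the block, with the Y-linked covariate and at 0.01. They were 3 with a filter at 6 and with the endothelial covariate, 5 with trend and robust settings, and 26 with array weights. With an array left out they were 1 to 2. Both called genes were higher with no filter, with the mean of the probe sets and without mutant replicate 4. Tfrc was not among them there. With array weights the calls moved most; the cause was not tested.

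Signs turned for differences near 0. Egln2 became 0.053 with a second quantile normalization, 0.08 with centring, 0.042 with array weights and with the endothelial covariate, and 0.014 to 0.054 without mutant replicate 2, mutant replicate 4 or control replicate 2 (0.017, 0.014 and 0.054). Over the arrays left out in turn the Egln2 range was -0.05 to 0.054. Egln3 ranged from -0.50 to 0.31 over the same arrays, the latter without mutant replicate 1, and was -0.92 with the endothelial covariate. Arnt became 0.071 and the second Egln1 probe set 0.17 with the endothelial covariate. Arnt2, -0.24 to 0.20 with an array left out, became 0.016 with quantile normalization, 0.015 with centring, 0.012 with the mean of probe sets, 0.073 with the Y-linked covariate, 0.20 without mutant replicate 1 and 0.082 without control replicate 4. Same-numbered mutant and control arrays deviated from their group means with correlations of -0.0843, -0.479, -0.201 and 0.303 over genes. With so few arrays these values cannot show or exclude a shared litter or preparation day, so the block is given as a check. The Hif3a difference was -1.91 with the block as without it, with a limma adjusted p of 0.0645. Signal over background limits the family: 14 of its 27 probe sets were not tested, 10 of them at the floor on all arrays, and Hif3a was read near the filter level in mutants.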
